A study of Mus musculus with 63 samples.

Results

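The comparison was between a G9a knockout embryonic stem (ES) cell line into which G9a had been put back, G9a KO1 reconstituted, and its parent line, G9a KO1, after 24 h of hypoxia. Its 6 cultures, 3 of each line, were taken by line and exposure from the sample titles, out of 63 cultures in all. The whole series covered 7 TT2 mouse ES cell lines of mixed C57BL/6 and CBA strain, labelled male: wild-type (WT), Jmjd1a knockout, G9a knockout and reconstituted lines. Each line was held at 21% oxygen, at 1% oxygen for 4 h, or at 1% oxygen for 24 h, and each was seeded at 3 densities. Total RNA was hybridised to Illumina bead arrays, 1 array a culture. The reconstituted cultures had the genotype G9a KO plus a G9a transgene, and the G9a KO1 cultures had the genotype G9a KO without one. Both lines carried the G9a deletion, were grown with LIF and serum, and were seeded at 200000, 400000 or 600000 cells per plate, so each reconstituted culture had a G9a KO1 culture of the same density. The promoter, copy number and insertion site of the transgene, and whether each line was 1 clone, were not given in the sources used here. Because 1 line was set against 1 line, no p-value below measures the spread between independently made lines. In the main fit the spread came from cultures within all 21 groups of line and exposure in the series. Some of those groups were divided between the array sets described below. An SE can therefore exceed the spread of the 3 cultures of each line compared.

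G9a, encoded by Ehmt2, is the main enzyme that places 1 or 2 methyl groups on lysine 9 of histone H3 in euchromatin, where it works as a pair with the related enzyme GLP (Ehmt1). The mark is associated with gene silencing, and ES cells without G9a are known for expressing genes normally kept off outside the germ line, among them X-linked Mage genes. Putting the enzyme back into a knockout line asks which expression differences return with it.

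Values are log2 intensities after quantile normalization. The deposited values stop at a floor of 20, which is 4.32 on the log2 scale, so a gene at 4.32 was at or under the lowest recorded value. Summed intensities before normalization were 7773601 to 7792318 in the reconstituted cultures and 8183542 to 8350995 in the G9a KO1 cultures, and 42.45% to 43.49% against 44.72% to 45.98% of deposited values lay above the floor. Cultures of 1 line correlated at 0.992 or more across genes, while the highest correlation between the lines was 0.955. All 9 ES cell markers examined were above the floor on all 6 arrays, with summed intensities of 39198 to 41475 in reconstituted and 45540 to 48931 in G9a KO1 cultures. Of these markers, Tdgf1, Sox2, Klf4 and Nanog averaged lower in reconstituted cultures, and Pou5f1, Zfp42, Esrrb, Utf1 and Dppa5a averaged higher. Tdgf1, at 10.83 against 12.87, is described below with its values by array set. Of 5 feeder fibroblast markers, 4 were at the floor on all 6 arrays (Col1a1, Col1a2, Col3a1 and Postn), and the summed level of the 5 was 162 to 172 against 128 to 143. Among markers of other lineages, Cdx2 and Elf5 (trophectoderm), Gata4, Sox17 and Ttr (primitive endoderm), Mixl1 (mesoderm), and Sox1 and Pax6 (neural ectoderm) were likewise at the floor on all 6. Others in these lists were above it on all 6 arrays: Eomes (7.26 in reconstituted and 7.45 in G9a KO1 cultures on average), Dab2 (5.72 and 5.93), Nes (7.10 and 7.62), Krt8 (8.50 and 8.71) and Krt18 (6.33 and 6.80). Gata3 and Afp were at the floor in all reconstituted cultures and averaged 5.06 and 4.85 in G9a KO1, while Gata6 averaged 4.36 against 5.00 and Krt7 4.45 against 5.10. Summed marker levels in reconstituted and G9a KO1 cultures were 470 to 638 against 608 to 689 for 6 trophectoderm markers, 146 to 162 against 172 to 199 for 6 primitive endoderm markers, 134 to 225 against 165 to 221 for 2 mesoderm markers, and 162 to 194 against 221 to 256 for 3 neural markers. The part of these cells in the results was not tested.

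Array totals across the series moved in steps of 8 arrays in accession order, and these runs are called array sets here. At 24 h all reconstituted cultures lay in the last set and all G9a KO1 cultures in another, so line and array set cannot be told apart at this exposure. The reconstituted line in normoxia was divided between sets, with the culture at 600000 cells in the same set as the 24 h cultures and the other 2 in the set before it. An additional fit over all 63 arrays carried array set as a term. It gave 1 difference per gene for reconstituted minus G9a KO1 over the 3 exposures. It held no line-by-exposure term and so took the change with exposure as the same in every line. Between the G9a KO1 24 h set and the next, G9a KO2 was the only shared line. Its normoxia cultures lay in the former and its hypoxia cultures in the latter. Where the change differs by line, a value of this fit can lie outside the differences at the single exposures. Values of this fit are given below as set-adjusted differences, and the fit was chosen after the data were seen.

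Of 8723 genes tested with limma, 3057 (35.0%) were higher and 1785 (20.5%) lower in reconstituted than in G9a KO1 cultures at 24 h, 55.5% in all, at a Benjamini-Hochberg adjusted p under 0.05. Without quantile normalization the split was 2002 higher and 2652 lower, and the median difference of all genes was -0.04 in place of 0.08. Among large differences the lower side held more genes. A difference of at least 1 on the log2 scale was found for 299 higher genes (3.43%) and 572 lower genes (6.56%), and one of at least 2 for 8 higher (0.0917%) and 161 lower (1.85%). The 3 reconstituted values lay wholly above the 3 G9a KO1 values for 36.6% of genes and wholly below for 24.4%. At 4 h, 54.4% of genes were called between the same lines, 33.6% higher and 20.7% lower, and in normoxia 28.1%, 14.8% higher and 13.3% lower. The set-adjusted fit called 16.3% of genes, 733 higher and 688 lower.

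The array set of the reconstituted normoxia cultures went together with seeding density, since the culture in the last set was the only one at 600000 cells. Of the 572 genes lower by at least 1, 332 (58.0%) were also lower by at least 1 in the single reconstituted normoxia culture of the last array set than in the other 2 reconstituted normoxia cultures, against 465 of all genes tested (5.33%). Of the 299 higher genes, 33 were likewise higher in that culture, against 125 of all genes (1.43%). The same step, 600000 cells against the other 2 densities, was at least 1 lower for 1 of the 572 genes in G9a KO1 normoxia cultures, 0 in reconstituted cultures at 4 h and 5 in reconstituted cultures at 24 h. Each of those groups lay within 1 array set. A gene at or near the floor in a group could not fall by 1 more there. Btg2, for example, was at the floor in all 3 reconstituted cultures at 24 h and averaged 4.38 at 4 h. These low counts were thus partly fixed beforehand, and the parts of array set and density were not tested. The set-adjusted fit called 165 of the 572 lower genes (28.8%) and 151 of the 299 higher genes (50.5%) in the same direction. A difference of at least 1 at all 3 exposures was found for 92 of the lower genes, of which 88 were also called in the set-adjusted fit, and for 57 of the higher genes, of which 40 were.

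Ehmt2 RNA, the targeted gene, was 9.19, 9.51 and 9.60 in the reconstituted cultures and 8.26, 8.33 and 8.53 in the G9a KO1 cultures, in order of rising density. All 3 reconstituted values lay above all 3 G9a KO1 values. The difference was 1.06 ± 0.13 (SE; n = 3 cultures a line; adjusted p = 5.58e-09), and a second Ehmt2 probe differed by 0.93 ± 0.12. The set-adjusted difference was 0.17 ± 0.18 (adjusted p = 0.575), and the reconstituted normoxia cultures stood at 7.90, 8.01 and 8.68, the highest in the last array set. Ehmt2 averaged 8.86 in the other G9a knockout line, G9a KO2, and 9.50 and 9.74 in the WT lines at 24 h. Signal in the knockout lines was far above the floor, and the position of the probes relative to the deletion was not analysed here, so the array does not check the deletion itself. Kdm3a, which encodes the H3K9 demethylase Jmjd1a and is present in both lines, was 11.02, 10.88 and 10.94 in reconstituted and 11.13, 11.05 and 11.21 in G9a KO1 cultures, a difference of -0.19 ± 0.08 that missed the threshold (adjusted p = 0.0551).

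**Figure D1:**
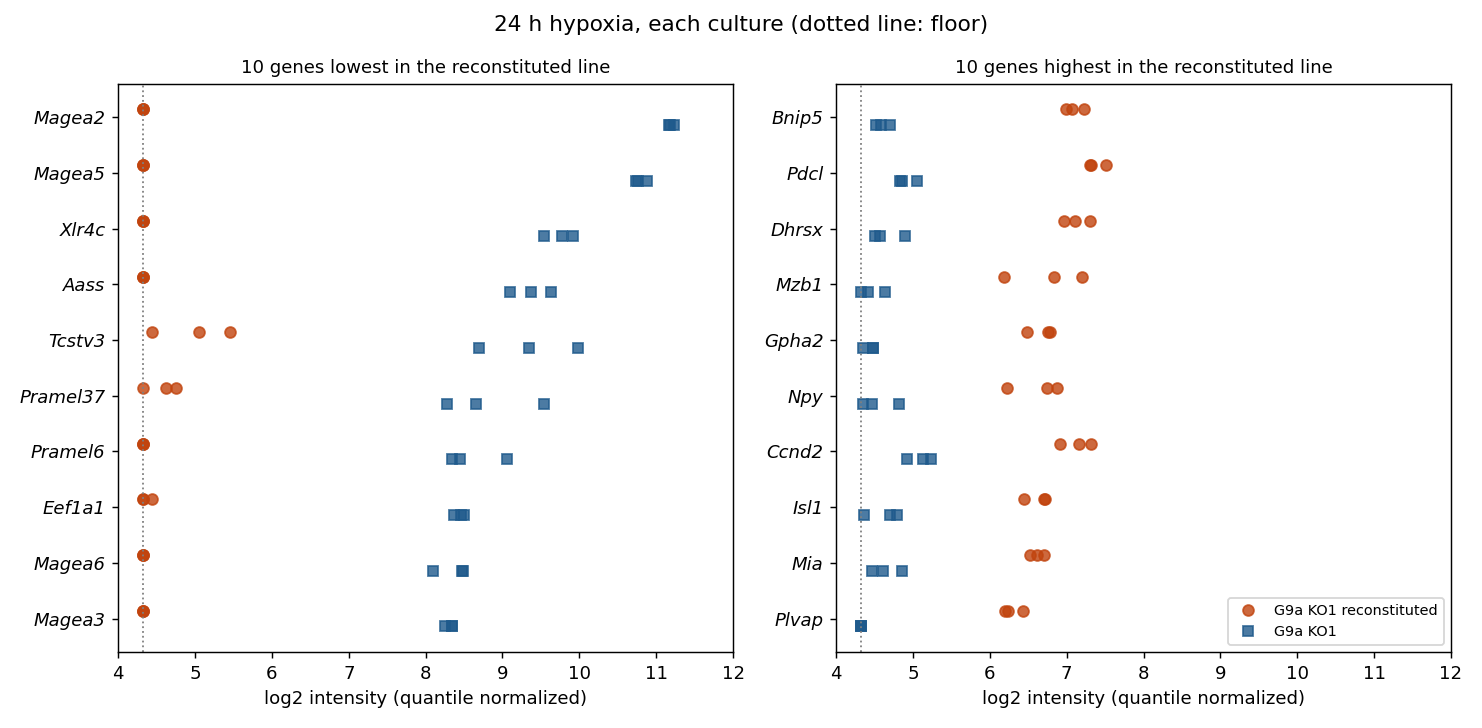
Log2 intensity (horizontal axis) of the 10 genes lowest (left) and the 10 highest (right) in the reconstituted line, with 1 point a culture at 24 h of hypoxia, circles for reconstituted cultures above squares for G9a KO1, and a dotted line at the floor of 4.32. Magea2 sits at the floor in all 3 reconstituted cultures and between 11.16 and 11.23 in G9a KO1, while Bnip5 sits between 7.00 and 7.22 in reconstituted cultures and between 4.52 and 4.71 in G9a KO1.

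The Mage genes, X-linked germline and tumour antigen genes, held the largest differences. Magea2 was at the floor in all 3 reconstituted cultures, against 11.23, 11.18 and 11.16 in G9a KO1, which is at least 112-fold lower (adjusted p = 2e-55). Magea5 was also at the floor in all 3 reconstituted cultures, against 10.88, 10.73 and 10.77, at least 84.7-fold lower. Magea6 (8.47, 8.09 and 8.49 in G9a KO1) and Magea3 (8.34, 8.34 and 8.26) were at the floor in reconstituted cultures too, at least 15.6-fold and 15.2-fold lower. No value of 1 line reached the range of the other for these 4 genes, whose sequences are close enough that their probes may not tell them apart. Magea2 was lower by 6.90 at 4 h and 7.10 in normoxia, and its set-adjusted difference was -6.82 ± 0.09. G9a KO2 had 11.22 for Magea2, and both WT lines were at the floor. Of 12 Mage family genes tested, of 16 with a probe and 22 listed, 6 were lower, 1 (Maged2) was higher and 5 were not called, with a median difference of -0.66 against 0.08 over all genes. In the set-adjusted fit 8 were lower and none higher, with a median of -0.90 (1 higher and 8 lower without quantile normalization), and Maged2 had the opposite sign at -0.29. Of all genes tested, 20.5% were lower and 35.0% higher at 24 h. A gene was tested if every culture of any 1 group exceeded the floor. A gene above the floor only in G9a knockout cultures is thus kept and can only be called lower. The count and median of this list depend on that filter.

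Other X-linked genes of the reproductive clusters were lower as well. Xlr4c was at the floor in all 3 reconstituted cultures and 9.91, 9.77 and 9.55 in G9a KO1, at least 40.9-fold lower, and G9a KO2 had 9.82 where both WT lines were at the floor. A second Xlr4c probe averaged 4.32 against 4.38. Xlr4a was 8.09, 8.37 and 8.37 in reconstituted cultures and 11.78, 11.73 and 11.76 in G9a KO1, without overlap, a difference of -3.47 ± 0.09 with a set-adjusted value of -3.99. The 2 are copies of one another and may share probes. Rhox5, a homeobox gene of the reproductive cluster, was 11.04, 11.04 and 10.92 against 12.84, 12.86 and 12.86, a difference of -1.85 ± 0.05 (set-adjusted -1.73). All 3 reconstituted values of Rhox5 also lay below the means of the WT lines (12.34 and 12.16) and of G9a KO2 (12.38). Of 9 genes of this list tested, of 15 with a probe and 31 listed, 7 were lower, none higher and 2 not called, with a median of -1.20. The set-adjusted fit called 5 lower and none higher, with a median of -1.65. Of all genes tested, 20.5% were lower and 35.0% higher at 24 h, and the filter described for the Mage genes applies here too.

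Genes of the 2-cell embryo, which are silent in most ES cells and transiently on in a few, were lower in the reconstituted cultures. Tcstv3 was 4.44, 5.05 and 5.46 in reconstituted cultures and 8.69, 9.34 and 9.99 in G9a KO1, without overlap (difference -4.36 ± 0.31, adjusted p = 1.87e-15, set-adjusted -4.15). Zscan4c, which encodes a zinc finger protein that marks the 2-cell-like state, was 4.62, 4.32 and 5.12 against 7.86, 8.54 and 9.19 (difference -3.85 ± 0.31). It too did not overlap, and its set-adjusted difference was -4.10. Pramel6, of the PRAME-like family, was at the floor in all 3 reconstituted cultures and 9.06, 8.35 and 8.44 in G9a KO1, at least 18.7-fold lower. Pramel37, another member of that family, was 4.32, 4.62 and 4.75 against 8.28, 8.66 and 9.54 (difference -4.26 ± 0.30). For both Pramel genes every G9a KO1 value lay above every reconstituted value. Of 19 genes of the 2-cell list tested, of 29 with a probe and 44 listed, 17 were lower, none higher and 2 not called, with a median of -1.48, or -1.44 with genes at the floor set to their bound. The set-adjusted fit called 8 lower and none higher, with a median of -0.94. Of all genes tested, 20.5% were lower and 35.0% higher at 24 h, and the filter described for the Mage genes again applies. Zscan4, Tcstv and Pramel genes lie in families of near-identical copies, so a probe may read several of them. In these bulk cultures fewer cells with such RNA and less RNA per cell cannot be told apart.

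Germline genes on autosomes differed in both directions, with more called lower than higher. Asz1, which encodes a germ cell protein of the piRNA pathway, was 4.86, 5.26 and 5.66 in reconstituted cultures and 8.65, 8.86 and 8.88 in G9a KO1, without overlap (difference -3.53 ± 0.21, adjusted p = 1.82e-18, set-adjusted -3.33). Smc1b, the meiotic cohesin subunit, was 7.00, 7.21 and 7.34 against 8.28, 8.57 and 8.56 (difference -1.29 ± 0.15, set-adjusted -1.57). Dazl, a germ cell RNA-binding protein, was 6.26, 6.71 and 6.50 against 7.77, 7.62 and 7.89 (difference -1.27 ± 0.14, set-adjusted -1.56). None of these 3 genes overlapped between the lines. Smc1b in the reconstituted cultures remained above the WT lines, at 4.32 and 5.94. Piwil2, a piRNA-binding Argonaute protein, was higher, at 6.94, 7.17 and 7.39 against 5.83, 6.10 and 6.50 (difference 1.03 ± 0.17, set-adjusted 0.82). Of 26 germline genes tested, of 44 with a probe and 55 listed, 12 were lower, 6 higher and 8 not called, with a median of -0.28. The shares over all genes tested were 20.5% lower and 35.0% higher. With array set as a term 5 of the 26 germline genes were lower and 3 higher, with a median of -0.08.

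The start regions of genes from these groups are shown because they differ in how many CG dinucleotides, the sites of DNA methylation, they hold. Each runs from 250 bases before to 50 bases after the annotated start, 5′ to 3′ on the gene's strand, from RefSeq on GRCm38.p6, with CG dinucleotides in capitals. Magea2 lies at chrX:155033243-155033542 on the minus strand and holds 9 CG, the top of the range of 0 to 9 for the Mage genes that were lower. Pramel6 lies at chr2:87506315-87506614 on the plus strand and holds 3. Asz1 lies at chr6:18109012-18109311 on the minus strand and holds 17. Smc1b lies at chr15:85131908-85132207 on the minus strand and holds 29, the top of the range of 10 to 29 for the germline genes that were lower.
Magea2: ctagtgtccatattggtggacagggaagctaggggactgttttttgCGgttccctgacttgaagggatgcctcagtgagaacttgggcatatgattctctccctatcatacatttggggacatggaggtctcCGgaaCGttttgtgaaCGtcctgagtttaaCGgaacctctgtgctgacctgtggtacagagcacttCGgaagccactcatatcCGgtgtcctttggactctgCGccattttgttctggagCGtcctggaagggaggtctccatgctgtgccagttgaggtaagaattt
Pramel6: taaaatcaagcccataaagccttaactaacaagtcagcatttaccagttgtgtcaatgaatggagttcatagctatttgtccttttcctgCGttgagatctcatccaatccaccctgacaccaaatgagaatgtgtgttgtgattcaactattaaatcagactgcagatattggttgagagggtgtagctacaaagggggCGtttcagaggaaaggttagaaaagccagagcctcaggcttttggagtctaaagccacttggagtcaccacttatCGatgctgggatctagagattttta
Asz1: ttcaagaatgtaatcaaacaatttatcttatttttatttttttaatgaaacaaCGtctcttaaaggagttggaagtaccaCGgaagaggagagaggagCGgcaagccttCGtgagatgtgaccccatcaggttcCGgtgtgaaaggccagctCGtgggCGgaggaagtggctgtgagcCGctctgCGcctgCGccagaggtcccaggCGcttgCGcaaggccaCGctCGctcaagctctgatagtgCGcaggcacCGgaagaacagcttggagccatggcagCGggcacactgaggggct
Smc1b: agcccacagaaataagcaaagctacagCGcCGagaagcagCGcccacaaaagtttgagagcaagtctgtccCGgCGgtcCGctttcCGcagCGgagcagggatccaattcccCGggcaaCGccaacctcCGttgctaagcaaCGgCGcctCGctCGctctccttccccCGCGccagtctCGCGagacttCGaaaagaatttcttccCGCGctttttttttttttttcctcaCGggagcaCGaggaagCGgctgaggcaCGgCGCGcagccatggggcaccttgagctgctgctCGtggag

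Across the called lists the same windows held a median of 1 CG for the 6 Mage genes that were lower, 7 for the 7 X-linked genes that were lower and 1 for the 11 of 17 lower 2-cell genes that matched the promoter table. The 12 promoters of the 10 matched germline genes that were lower held a median of 19, and the 6 promoters of the 5 matched germline genes that were higher also 19. All 32851 promoters in the table held a median of 7, and the 9194 promoters of the 7141 genes tested that matched held a median of 20. The motifs CACGTG, the E-box, and TCCCGC, an E2F-type site, were searched on both strands. Each motif itself contains a CG, so its count depends on the CG count of the windows. Among the germline genes that were lower, 4 of 12 promoters (33.3%) held CACGTG and 6 held TCCCGC. Among the germline genes that were higher, 1 of 6 (16.7%) held CACGTG and 3 held TCCCGC. The shares were 7.15% and 20.0% over all promoters, and 10.0% and 34.9% over those of genes tested. Neither motif was found in the windows of the Mage, X-linked or 2-cell genes that were lower. With a median of 1 CG in the Mage and 2-cell windows, there was little room for either motif. That absence is therefore not separate from the CG counts. Of the 4 windows shown, Smc1b alone held TCCCGC and none held CACGTG. These are matches of letters in a window and were not tested.

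Outside these families, Aass, which encodes a mitochondrial enzyme of lysine breakdown, was at the floor in all 3 reconstituted cultures and 9.63, 9.37 and 9.10 in G9a KO1, at least 31.5-fold lower. It averaged 8.10 in G9a KO2 and 4.49 and 4.47 in the WT lines, and its set-adjusted difference was -4.08 ± 0.31. The probe annotated to Eef1a1, a translation elongation factor, was 4.32, 4.32 and 4.44 against 8.46, 8.50 and 8.37, without overlap (difference -4.08 ± 0.41). For this probe the difference in normoxia was -0.52 (adjusted p = 0.39) and the set-adjusted difference had the opposite sign, at 0.34. These 2 completed the 10 genes with the lowest values, the others being Magea2, Magea5, Magea3, Magea6, Xlr4c, Tcstv3, Pramel37 and Pramel6.

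The highest genes belonged to no single family. Bnip5 was 7.22, 7.00 and 7.07 in reconstituted cultures and 4.59, 4.71 and 4.52 in G9a KO1 (difference 2.49 ± 0.16, adjusted p = 1.41e-16, set-adjusted 2.24). Pdcl, which encodes a phosducin-like protein, was 7.32, 7.51 and 7.30 against 5.05, 4.85 and 4.83 (difference 2.47 ± 0.16, set-adjusted 2.18). In neither gene did the lines overlap, and the difference of Pdcl in normoxia was 0.36 (adjusted p = 0.10). Dhrsx, a short-chain dehydrogenase gene, was 7.11, 6.96 and 7.30 against 4.89, 4.50 and 4.57 (difference 2.47 ± 0.12), and a second probe averaged 6.89 against 4.61. Ccnd2, the cyclin D2 gene, was 7.16, 7.31 and 6.91 against 4.92, 5.13 and 5.24 (difference 2.03 ± 0.17, set-adjusted 1.75). Isl1, a LIM homeobox transcription factor, was 6.44, 6.70 and 6.72 against 4.37, 4.70 and 4.79 (difference 2.01 ± 0.14, set-adjusted 2.75). The lines did not overlap in Dhrsx, Ccnd2 or Isl1, but the difference of Isl1 in normoxia was 0.19 (adjusted p = 0.366). Plvap, an endothelial membrane protein gene, was 6.43, 6.19 and 6.24 in reconstituted cultures and at the floor in all 3 G9a KO1 cultures, at least 3.87-fold higher. Mzb1 (difference 2.28 ± 0.22), Gpha2 (2.24 ± 0.17), Npy, the neuropeptide Y gene (2.07 ± 0.19), and Mia (1.97 ± 0.19) completed the 10 highest. The set-adjusted difference was 0.51 for Npy (adjusted p = 0.548) and 1.27 for Mzb1 (adjusted p = 0.064), both short of the threshold. In normoxia neither Npy, at 0.05, nor Gpha2, at 0.34, was called.

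Several highly expressed genes were called lower at 24 h and were also low in the reconstituted normoxia culture at 600000 cells, the one in the last array set. Hspa5, the main endoplasmic reticulum chaperone, was 9.64, 9.70 and 9.66 in reconstituted cultures and 11.92, 11.77 and 11.98 in G9a KO1 (difference -2.22 ± 0.66, adjusted p = 0.0039). In normoxia the reconstituted cultures had 11.70 and 11.32 in 1 set and 9.24 in the last set, and the set-adjusted difference was -0.37 (adjusted p = 0.439). Ccna2, the cyclin A2 gene, was 8.99, 8.97 and 9.19 against 10.87, 10.84 and 10.78 at 24 h, and its reconstituted normoxia values were 10.36 and 10.50, and 8.66 in the last set. Its difference of -1.78 ± 0.65 (adjusted p = 0.0182) turned to 0.31 with array set as a term and to 0.33 with array set as a random block. Tdgf1, the Nodal co-receptor Cripto, was 10.74, 10.90 and 10.85 against 12.79, 12.93 and 12.89, with reconstituted normoxia values of 11.93, 11.82 and 10.16. Its difference of -2.04 ± 0.60 became 0.07. The 6 values at 24 h did not overlap for any of these 3 genes, and each normoxia culture of the last set was the lowest of its 3.

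**Figure D2:**
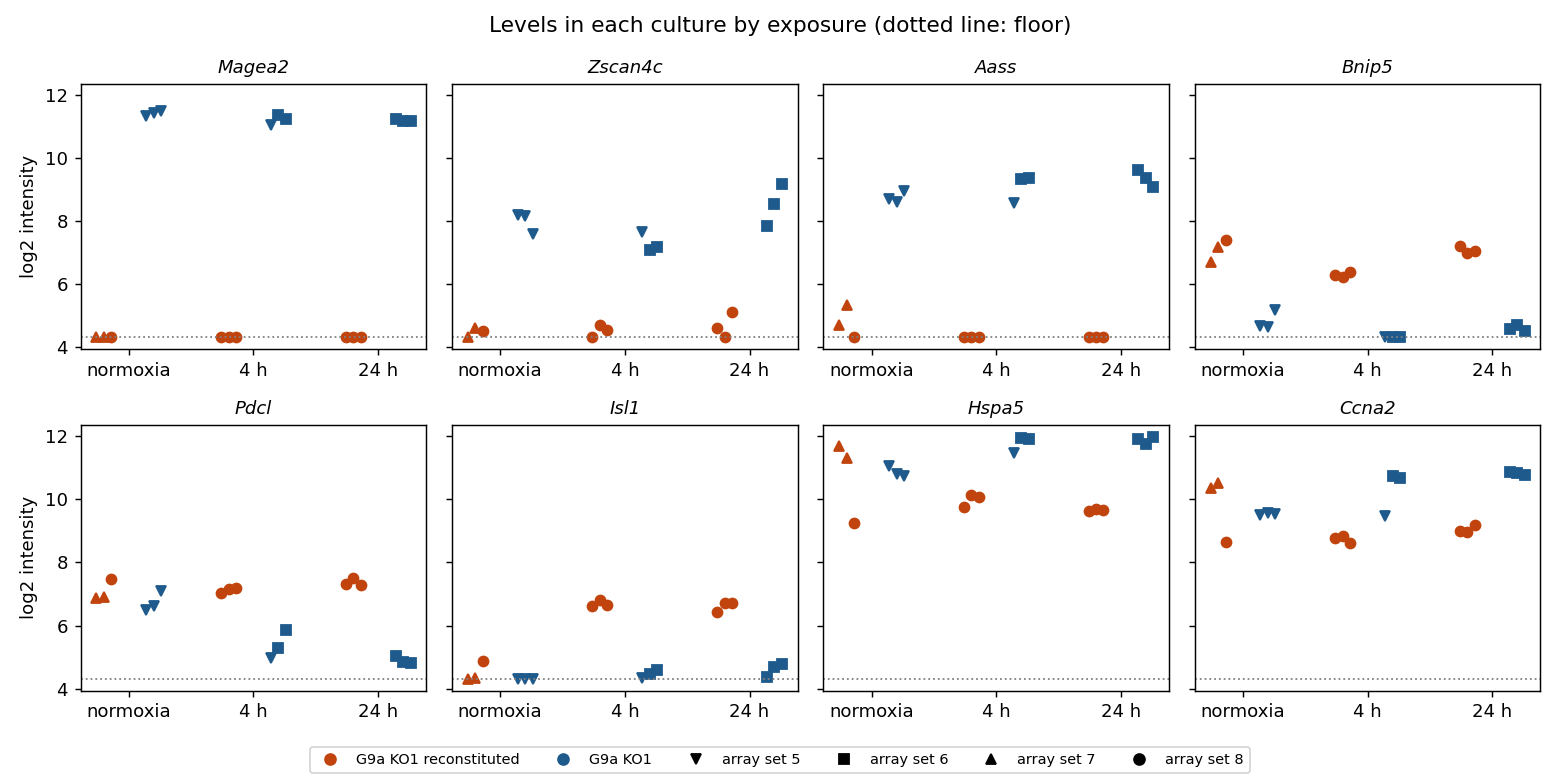
Log2 intensity of named genes in every reconstituted and G9a KO1 culture in normoxia, at 4 h and at 24 h of hypoxia, with the marker shape showing the array set and a dotted line at the floor. Magea2 is at the floor in every reconstituted culture and high in every G9a KO1 culture, while Hspa5 and Ccna2 in reconstituted normoxia cultures lie at 9.24 and 8.66 in the last array set, against 11.32 to 11.70 and 10.36 to 10.50 in the set before it.

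The levels of G9a KO2 and the WT lines came from cultures outside the comparison. Of the 572 genes lower by at least 1 in reconstituted cultures, G9a KO2 lay above the mean of the WT lines at 24 h for 548 (95.8%), and by at least 1 for 447, against 38.3% and 9.97% of all genes tested. Of the 299 higher genes, G9a KO2 lay below the WT mean for 280 (93.6%), and by at least 1 for 135, against 59.3% and 7.29% of all genes. The reconstituted mean was nearer to the WT mean than the G9a KO1 mean was for 520 of the lower genes (90.9%) and 237 of the higher genes (79.3%), against 64.5% of all genes tested. Over every gene called it was nearer for 71.2% of lower and 72.1% of higher genes. G9a KO2 and the WT lines lay in other array sets, so these counts carry the same mixture of line and set. The filter described for the Mage genes applies as well. A gene at the floor in both WT lines, such as Magea2, could not lie lower in G9a KO2. The counts for lower genes in this paragraph depend on that limit. Among the 165 lower genes that were also called with array set as a term, G9a KO2 lay above the WT mean for 157, and by at least 1 for 122. Among the corresponding 151 higher genes it lay below for 144, and by at least 1 for 77. Among the 92 genes lower by at least 1 at all 3 exposures it lay above for all 92, by at least 1 for 72, and 14 of the 92 were on the X chromosome.

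**Figure D3:**
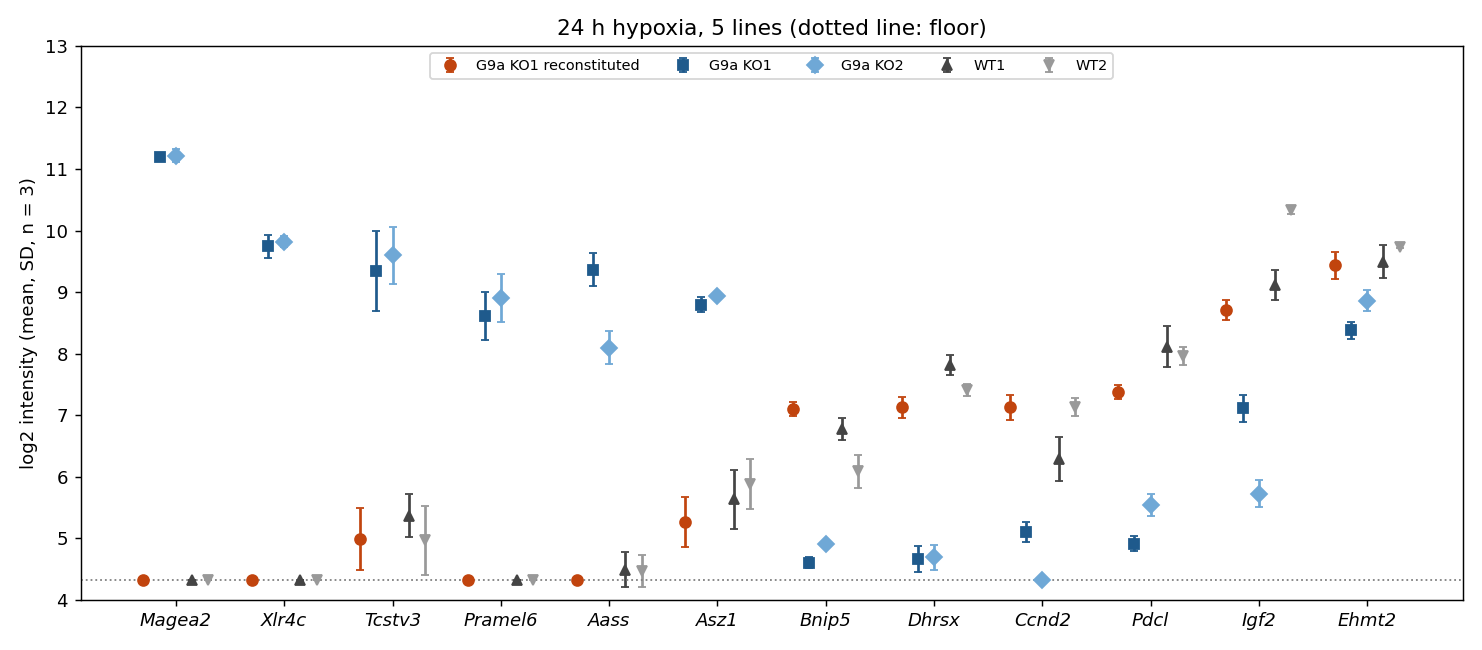
Mean log2 intensity (vertical axis, with SD, n = 3 cultures) of 12 genes at 24 h of hypoxia in the reconstituted line, G9a KO1, G9a KO2 and the WT lines, with a dotted line at the floor. Magea2 is at the floor in reconstituted and WT cultures and averages 11.22 in G9a KO2, while Ccnd2 averages 4.32 in G9a KO2 and 6.28 and 7.14 in the WT lines.

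Between 4 h and 24 h of hypoxia the change differed between the lines for 346 genes (3.97%), 160 with a larger increase or smaller decrease in the reconstituted line and 186 the reverse. The 2-cell list held 10 of its 19 tested genes among the 186 (2.13% of all genes) and none among the 160 (1.83%). Tcstv1 was at the floor in all reconstituted cultures at both times, while G9a KO1 averaged 7.56 at 24 h and 5.95 at 4 h, so a decrease in the reconstituted line could not have been measured. At 24 h Tcstv1 was 6.78, 7.65 and 8.23 in G9a KO1, at least 8.97-fold above the reconstituted floor. Pramel31 was likewise at the floor in reconstituted cultures and 6.14, 6.86 and 7.76 in G9a KO1 at 24 h, at least 5.79-fold lower in reconstituted cultures. The cholesterol list had 5 of 17 genes with a more positive change in the reconstituted line and none with a more negative one. Cyp51, which removes a methyl group from lanosterol, was 8.55, 8.62 and 8.43 in reconstituted and 7.81, 7.68 and 7.59 in G9a KO1 cultures at 24 h, without overlap (difference 0.84 ± 0.12). The line difference of Cyp51 was -0.09 at 4 h and -0.77 in normoxia, and the difference in change from 4 h was 0.93 ± 0.18 (adjusted p = 0.000438). From normoxia to 24 h the change differed for 2811 genes (32.2%), and the reconstituted line there passed between array sets.

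The enzymes of cholesterol synthesis as a list were higher at 24 h, with 11 of 17 tested genes higher (18 with a probe, 25 listed), none lower and 6 not called, and a median of 0.40. Among all genes tested, 35.0% were higher and 20.5% lower. Hmgcs1, which makes the HMG-CoA that feeds the pathway, was 12.79, 12.72 and 12.72 in reconstituted cultures and 11.95, 11.89 and 11.80 in G9a KO1, without overlap (difference 0.87 ± 0.07, set-adjusted 0.98). Mvd, mevalonate diphosphate decarboxylase, was 8.14, 8.16 and 8.34 against 6.85, 7.54 and 7.37 (difference 0.96 ± 0.13, set-adjusted 0.22, adjusted p = 0.478). The set-adjusted fit called 2 of the 17 higher and none lower, with a median of 0.22, and without quantile normalization 7 were higher and none lower. In the stress response list, 16 of 36 tested genes were higher (43 with a probe, 45 listed), 5 lower and 15 not called, with a median of 0.31, but the set-adjusted median was -0.21 with 2 higher and 4 lower. Chac1, a glutathione-degrading target of Atf4, was 9.11, 10.76 and 10.84 against 7.19, 9.10 and 9.50 (difference 1.64 ± 0.20). The lines overlapped in Chac1 and its set-adjusted difference was -0.34.

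Enzymes and readers of H3K9 methylation had 9 of 21 tested genes higher (26 with a probe, 32 listed), 1 lower and 11 not called, with a median of 0.16, against 35.0% higher and 20.5% lower of all genes. In the set-adjusted fit 1 was higher and none lower, and without quantile normalization 6 were higher and 3 lower, with a median of 0.03. Cdyl, a chromodomain reader, was higher by 0.89 and Cbx5, which encodes HP1 alpha, by 0.61, while a second Cbx5 probe differed by -0.35. Set-adjusted differences were 0.39 for Cdyl and 0.07 for Cbx5, and neither was called in that fit. Of 8 genes of the DNA methylation machinery tested (11 with a probe, 16 listed), 4 were higher, 2 lower and 2 not called, with a median of 0.22 and 1 higher and none lower in the set-adjusted fit. Dnmt3a, a de novo DNA methyltransferase, was at the floor in all 3 reconstituted cultures and 5.80, 6.58 and 6.47 in G9a KO1 (at least 3.73-fold lower), with a set-adjusted difference of the opposite sign, 0.52. Imprinted genes, expressed from 1 parental copy, had 12 of 29 higher (41 with a probe, 45 listed), 5 lower and 12 not called. Again, all genes tested were 35.0% higher and 20.5% lower. The median of the imprinted genes was 0.00, with 5 higher and 2 lower in the set-adjusted fit. Without quantile normalization 9 were higher and 9 lower. Igf2, the paternally expressed growth factor, was 8.55, 8.71 and 8.88 in reconstituted cultures and 6.86, 7.27 and 7.21 in G9a KO1 (difference 1.60 ± 0.14, set-adjusted 0.72). Nnat was 6.29, 6.50 and 6.31 against 4.64, 4.63 and 4.37 (difference 1.82 ± 0.16, set-adjusted 1.04). Neither Igf2 nor Nnat overlapped between the lines. Their means in G9a KO2 were 5.72 and 4.35.

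Pluripotency genes had 7 of 30 higher (31 with a probe, 35 listed), 11 lower and 12 not called, with a median of -0.17. Here and for the lineage lists below, the shares over all genes tested were 35.0% higher and 20.5% lower. Tbx3, a naive pluripotency transcription factor, was 6.33, 6.34 and 5.90 in reconstituted cultures and 7.93, 7.69 and 7.53 in G9a KO1 (difference -1.53 ± 0.17, set-adjusted -1.38), without overlap. The set-adjusted fit called 1 gene of this list higher and 5 lower. Among lineage lists, endoderm genes had 2 of 15 higher (25 with a probe, 27 listed), 8 lower and 5 not called, with a median of -0.22 and 1 higher and 6 lower in the set-adjusted fit. Col4a1, the basement membrane collagen, was 6.53, 6.84 and 6.75 against 8.15, 7.98 and 7.84 (difference -1.29 ± 0.19, set-adjusted -2.63), also without overlap. The line difference of Col4a1 was -0.83 at 4 h and -1.22 in normoxia. Trophectoderm genes had 3 of 20 higher (25 with a probe, 28 listed), 8 lower and 9 not called, median -0.20, with none higher and 5 lower set-adjusted. Formative epiblast and ectoderm genes had 2 of 7 higher (17 with a probe, 18 listed), 2 lower and 3 not called, median -0.04, with none higher and 2 lower set-adjusted. Mesoderm genes had 2 of 12 higher (24 with a probe, 27 listed), 1 lower and 9 not called, median -0.12, with no call set-adjusted and 2 higher and 5 lower without quantile normalization. Feeder fibroblast genes had 4 of 9 higher (21 with a probe, 23 listed), 1 lower and 4 not called, median 0.12, with none higher and 1 lower set-adjusted. Acta2, smooth muscle actin, gave the largest difference there, at 8.99, 9.03 and 9.39 against 7.49, 7.61 and 7.44 (difference 1.62 ± 0.19). Its set-adjusted difference of 0.67 was not called. The WT lines themselves averaged 7.42 and 10.95 for Acta2 at 24 h, and G9a KO2 averaged 5.15.

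Genes induced by hypoxia through the HIF transcription factors showed no common direction between the lines at 24 h. Of 39 tested (46 with a probe, 48 listed), 7 were higher, 10 lower and 22 not called, with a median of 0.00, and the set-adjusted fit called 2 higher and 5 lower. Without quantile normalization 3 were higher and 15 lower, with a median of -0.13. For this list and those below, the reported shares over all genes tested were 35.0% higher and 20.5% lower. Bnip3, a mitophagy receptor, was 5.68, 6.12 and 6.15 in reconstituted cultures and 7.07, 7.10 and 7.36 in G9a KO1 (difference -1.19 ± 0.27, set-adjusted -3.41). The line difference of Bnip3 was -0.85 at 4 h and 0.06 in normoxia (limma adjusted p = 0.944). Its set-adjusted value lay outside the difference at every exposure. Epas1, which encodes HIF-2 alpha, was 5.53, 5.08 and 5.03 against 6.86, 6.47 and 6.59 (difference -1.42 ± 0.20, set-adjusted -0.80). Neither Bnip3 nor Epas1 overlapped between the lines, and both WT lines were at the floor for Bnip3. A second Epas1 probe, near the floor, differed by -0.27 and was not called. Vegfa, the main angiogenic growth factor, averaged 8.49 ± 0.54 in reconstituted and 8.81 ± 0.20 in G9a KO1 cultures (SD, n = 3 each), a difference of -0.32 ± 0.25 (SE) that did not pass the test (adjusted p = 0.275). Glycolysis genes had 5 of 20 higher (21 with a probe, 25 listed), 5 lower and 10 not called, median 0.02, with 3 higher and 3 lower set-adjusted. Hk1, hexokinase 1, was lower by 0.96, and Aldoc, aldolase C, was higher by 0.66 (set-adjusted 1.00). Angiogenesis stimulators had 7 of 27 higher (35 with a probe, 35 listed), 4 lower and 16 not called, median 0.09, with none higher and 3 lower set-adjusted. Tek, the angiopoietin receptor, was 6.94, 6.40 and 6.35 against 7.80, 7.99 and 7.98 (difference -1.36 ± 0.13, set-adjusted -1.11). Angiogenesis inhibitors had 3 of 8 higher (23 with a probe, 24 listed), 2 lower and 3 not called, median 0.09, with none higher and 2 lower set-adjusted.

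The remaining lists described growth, stress and energy, and several shifted downward without quantile normalization, as all genes did. There, 1 p53 target was higher and 17 lower, 10 oxidative phosphorylation subunits were higher and 20 lower, and 8 ribosome biogenesis genes were higher and 11 lower. With quantile normalization, 35.0% of all genes tested were higher and 20.5% lower, the shares to set beside the counts below. Of 31 p53 targets tested (32 with a probe, 34 listed), 5 were higher, 9 lower and 17 not called, median -0.13, with none higher and 6 lower set-adjusted. Btg2, an antiproliferative p53 target, was at the floor in all 3 reconstituted cultures and 7.51, 7.76 and 7.89 in G9a KO1, at least 10.1-fold lower, with a difference of 0.71 in normoxia and a set-adjusted value of -1.16. Interferon-inducible genes had 5 of 23 higher (41 with a probe, 44 listed), 9 lower and 9 not called, median -0.16, with 1 higher and 7 lower set-adjusted. Ifi47, an interferon-inducible GTPase, was 7.36, 6.51 and 6.40 against 9.28, 9.41 and 9.14, without overlap (difference -2.53 ± 0.32, set-adjusted -4.82). DNA replication genes had 11 of 29 higher (30 with a probe, 33 listed), 7 lower and 11 not called, median 0.10, with 6 higher and 2 lower set-adjusted. Orc1, an origin recognition subunit, was lower by 3.05 at 24 h, with a set-adjusted difference of 0.67. Genes of G2 and mitosis had 5 of 19 higher (22 with a probe, 26 listed), 4 lower and 10 not called, median 0.10, with 1 higher and none lower set-adjusted. Oxidative phosphorylation subunits had 18 of 65 higher (67 with a probe, 70 listed), 15 lower and 32 not called, median 0.04, with 3 higher and 6 lower set-adjusted. Ribosome biogenesis genes had 10 of 31 higher (35 with a probe, 40 listed), 4 lower and 17 not called, median -0.03, with 2 higher and 1 lower set-adjusted. Nip7, a ribosome biogenesis factor, was 11.01, 10.86 and 10.87 against 9.62, 9.49 and 9.63, without overlap (difference 1.33 ± 0.10, set-adjusted 0.61). A second Nip7 probe, near the floor, went the other way, averaging 4.32 against 4.76. Metallothioneins had 2 of 5 higher (5 with a probe, 5 listed) and 3 not called, median 0.01, with no call set-adjusted. Replication-dependent histones had 7 of 33 higher (44 with a probe, 49 listed), 9 lower and 17 not called, median -0.05, with 5 higher and 2 lower set-adjusted, and many are near-identical copies.

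**Figure D4:**
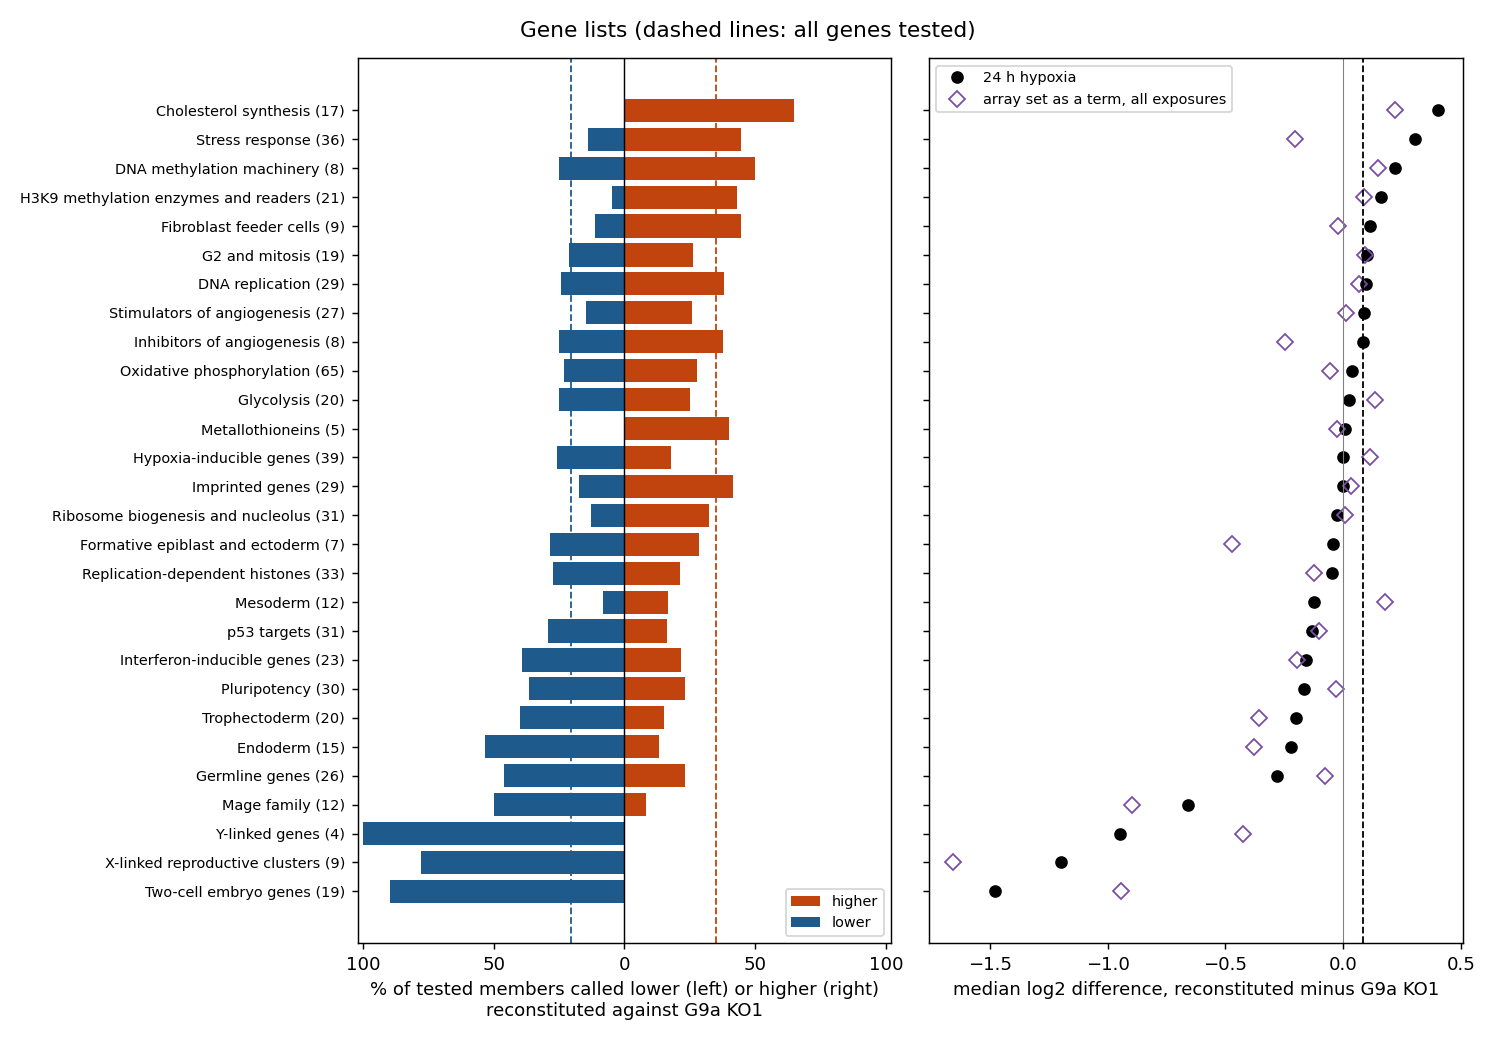
Left, the percentage of tested genes of each list called higher and lower in reconstituted than in G9a KO1 cultures at 24 h, and right, the median log2 difference of each list at 24 h (circles) and with array set as a term (diamonds), with dashed lines for all genes tested. The 2-cell list has 17 lower and none higher with medians of -1.48 and -0.94, while the stress response list has 16 higher and 5 lower with medians of 0.31 and -0.21.

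Differences were also unevenly spread over the chromosomes, a view chosen after the values were seen and given without a test. On the X, 39 of 313 genes tested (12.5%) were lower by at least 1 and 17 by at least 2, against 6.56% and 1.85% of all genes. On chromosome 8, 267 of 474 genes (56.3%) were higher, 42 (8.86%) were lower and 45 (9.49%) were higher by at least 1, against 35.0%, 20.5% and 3.43% of all genes. The median difference on chromosome 8 was 0.35 at 24 h, 0.37 at 4 h, 0.23 in normoxia, 0.30 with array set as a term and 0.19 without quantile normalization. The medians of the other 18 autosomes lay between -0.03 and 0.16 at 24 h, between -0.02 and 0.11 at 4 h, between -0.07 and 0.08 in normoxia and between -0.03 and 0.12 with array set as a term. Of 6 genes tested on the Y chromosome, 5 were lower and none higher. They held the Y-linked list, in which all 4 genes tested (8 with a probe, 9 listed) were lower, with a median of -0.95, and the set-adjusted fit called none, with a median of -0.42. Eif2s3y, a Y-linked translation factor gene, was 7.33, 7.33 and 7.26 in reconstituted cultures and 8.61, 8.25 and 8.22 in G9a KO1, without overlap (difference -1.05 ± 0.19, adjusted p = 6.45e-06).

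**Figure D5:**
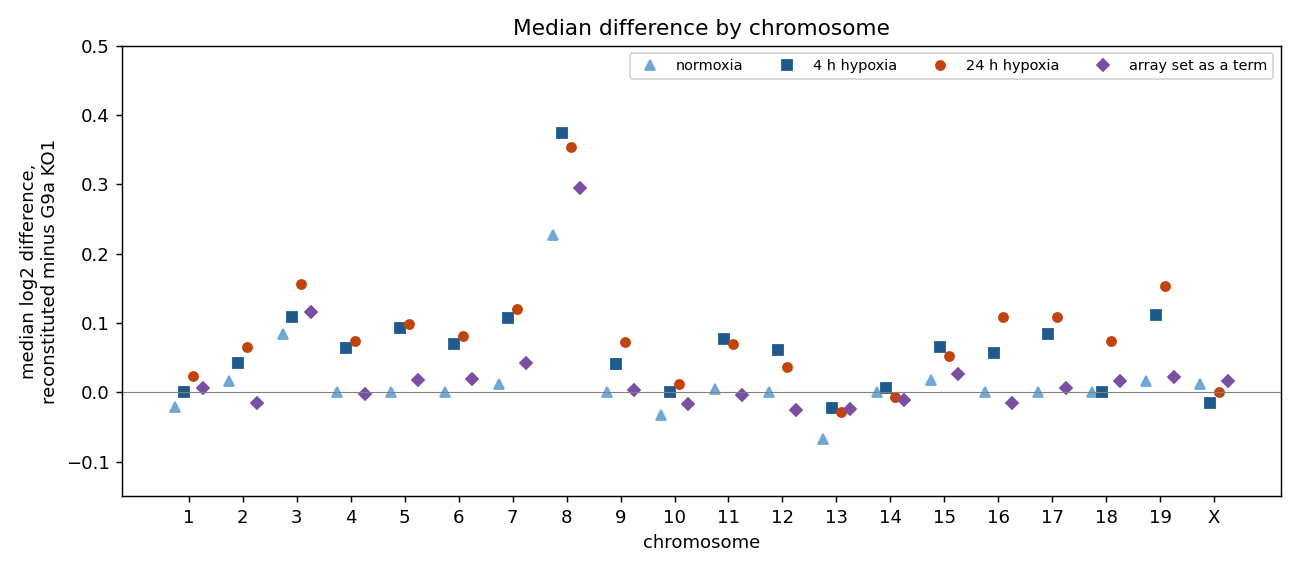
Median log2 difference, reconstituted minus G9a KO1, of the genes tested on each chromosome at 24 h, at 4 h, in normoxia and with array set as a term. Chromosome 8 lies at 0.35, 0.37, 0.23 and 0.30, above the other 18 autosomes under each.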

How the data were processed

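Total RNA from 63 cultures was measured on Illumina bead arrays. The authors deposited a table of intensity values per probe, processed in BeadStudio per the submitters' processing notes, with a lowest value of 20 and a highest of 41907.1; its background and scaling steps are not stated in the labels. A second table with 126 columns of per-sample values was not used, because its columns could not be matched to samples by their labels.

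The deposited intensities were put on the log2 scale and quantile normalized, with values at the floor returned to it. Of 25697 probes, 23978 had 1 gene symbol and 1719 none, and 23962 matched by Entrez identifier. A probe was kept where every culture of 1 or more of the 21 groups exceeded the floor (12731 probes), and the brightest probe stood for each gene, leaving 8723 genes. Group means and seeding density were fitted over all 63 arrays with limma 3.58.1 in R 4.3.3, checked on simulated data, with Benjamini-Hochberg adjustment over all genes at 0.05. Genes at the floor in every culture of 1 group were given as bounds. The number of arrays limits the precision.

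Named genes were Ehmt2 and Kdm3a, the 10 highest and 10 lowest called genes with 1 direction in all 3 density-matched pairs, the 5 highest and lowest for the differences in change, and up to 4 called members in each direction of each of 28 lists. Vegfa and the genes at the floor among markers were named after their values were seen. The comparison, lists and tests were chosen with earlier results of these data known. The alternatives were other scalings, floors and filters, single probes, the density term or block, array set, and leaving out each culture.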

Additional observations from a re-analysis of the deposited data

Results flagged for a closer look

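The change between exposures was tested as a line difference, reconstituted minus G9a KO1, and this difference itself passed the test for each gene below (limma, 3 cultures a group). From 4 h to 24 h of hypoxia it did so for 346 genes. The most positive were Sly at 2.76, Tspan2 at 2.02, Klra22 at 1.90, Crygd at 1.86 and Abcc3 at 1.81. Klra22, Crygd and Abcc3 were at the floor in all reconstituted cultures at 24 h. In G9a KO1 they averaged 6.66, 6.85 and 6.33 at 4 h, and 4.76, 4.50 and 4.32 at 24 h. The most negative were Nmi at -2.31, Btg2 at -1.61, Pramel31 at -1.61, Tcstv1 at -1.61 and Trim13 at -1.59. Sly averaged 5.82 at 24 h and 4.32 at 4 h in the reconstituted line, against 6.43 and 7.70 in G9a KO1. With the arrays restricted to 1 array set within each line, the value of Btg2 was -0.83 (adjusted p = 0.112).

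From normoxia to 24 h the difference passed the test for 2811 genes. The most positive were Sly at 2.34, Pdcl at 2.11, Npy at 2.02, Crygd at 2.00 and Gpha2 at 1.90. For Crygd, G9a KO1 averaged 6.63 in normoxia and 4.50 at 24 h, and the reconstituted line was at the floor at 24 h. The most negative were Btg2 at -4.11, Nmi at -3.89, Hnrnpd at -3.85, Perp at -3.84 and Mcm3ap at -3.76. The normoxia and 24 h cultures of both lines lay in different array sets, except the reconstituted normoxia culture at the highest density.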

How the results depend on the processing

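Leaving out 1 culture of the comparison in turn gave 2733 to 2841 genes higher, 1608 to 1660 lower, 281 to 317 higher by at least 1 and 550 to 571 lower by at least 1. Genes higher numbered 3057 as reported, 2002 without quantile normalization, 1915 with median scaling, 308 with array set as a random block (block correlation 0.71) and 733 with array set as a fixed term. Genes lower numbered 1785 as reported, 295 with the random block and 688 with the fixed term. Genes higher by at least 1 numbered 299, and 138, 142, 80, 105 and 109 without quantile normalization, with median scaling, with the floor raised to 100, with the random block and with the fixed term. Genes lower by at least 1 numbered 572, and 283, 176 and 226 with the raised floor, the random block and the fixed term. For the change from 4 h to 24 h the count was 346, and 152 for genes above the floor on all arrays of the groups compared. It was 121 when only the 12 arrays of those groups were fitted, with the same density factor. With the random block it was 556, and 245 to 360 on leaving out a culture. For the change from normoxia it was 2811, and 1235 when only the 12 arrays of the groups compared were fitted. With the random block it was 305, and 1732 to 3975 on leaving out a culture. The lowest of these were 1732 and 1834 without reconstituted normoxia replicate 1 or 2.

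With density as replicate block on the 6 arrays, 2674 genes were higher and 1767 lower, and 298 and 587 by at least 1. Deviations from the group means correlated at 0.33, 0.03 and 0.28 in the density-matched pairs, so the densities were not treated as pairs. Of 198 named genes, 187 kept their call and direction under the block and 184 without quantile normalization. Tspan2, not called at 24 h, changed sign without quantile normalization (-0.019) and with median scaling (-0.0068). With array set as a fixed term 65 did, 87 kept their direction without the call, 2 gained a call and 44 had the opposite sign; the cause was not tested. Those 44 were Tspan2 -0.49, Eef1a1 0.34, Trim13 1.33, Hnrnpd 0.49, Wiz 0.27, Tdg -0.11, Dnmt3a 0.52, Dnmt1 0.37, Maged2 -0.29, Dppa4 -0.011, Tdgf1 0.066, Nr0b1 0.53, Gbx2 -0.61, Hnf4a -0.19, Tfap2c -0.038, Peg10 -0.37, Ascl2 0.27, Loxl1 -0.38, Twist1 -0.023, Pgm1 0.32, Pgam1 0.12, Bdnf -0.15, Adm 0.13, Serpinf1 -0.30, Timp1 -0.27, Mcts2 0.75, Gadd45a -0.29, Aen -0.12, Chac1 -0.34, Trib3 -0.49, Ddit3 -0.17, Irf9 -0.080, H2-K1 0.41, Trim25 0.12, Orc1 0.67, Prim1 0.045, Rfc4 0.010, Ccna2 0.31, Hmmr 0.30, Ndufs6 -0.067, Nolc1 0.055, Ltv1 0.065, Mybbp1a 0.16 and Mt1 -0.27. With the random block 3 did: Ldha -0.076, Ccna2 0.33 and Ube2c 0.073.

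The fixed term for array set, and the fit without G9a KO2 4 h replicate 1, which moved no call among named genes, were chosen after seeing the data. Normalization with neqc and a filter on detection p were not run, because the columns of the table they need could not be matched to samples. Genes near the floor carry compressed differences.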

Other observations

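Chromosome 8 was also set against the WT lines at 24 h of hypoxia, as a description. Its median difference from the WT mean was -0.23 in the reconstituted line, -0.64 in G9a KO1 and -0.26 in G9a KO2. Over the other autosomes the medians lay between -0.13 and 0.05 in the reconstituted line, between -0.21 and 0.02 in G9a KO1 and between -0.21 and 0.03 in G9a KO2. Chromosome copy number was not measured in these files.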
